A study of Mus musculus with 5 samples.

Results

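The genes described here are the adenosine receptors Adora1, Adora2a and Adora2b and a group of orphan receptors of the striatum, Gpr6, Gpr83, Gpr139, Gpr149 and Gpr155, a set picked by gene name with earlier results of these data known. Of 9 genes listed, 8 were measured among the 26369 genes of the count table, and Gpr52 was not analysed here. Striatal total RNA of R6/1 mice (2 libraries) was set against that of wild-type (WT) mice (3 libraries), all on a mixed background of equal parts CBA and C57BL/6. The R6/1 transgene is exon 1 of the gene mutated in Huntington's disease, with a CAG repeat given as 115. The sources used here do not give the age or sex of the mice, the number of animals behind a library or any batch, so p-values measure the spread between libraries, which may be technical. The study's title concerns striatal genes that are regulated by super-enhancers and lowered in Huntington's disease.

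G protein-coupled receptors carry signals across the cell membrane. Receptors coupled to Gs or its striatal relative Golf raise cAMP through adenylyl cyclase, and receptors coupled to Gi lower it. In the striatum, adenosine formed outside the cell from ATP acts on the Gs/Golf-coupled A2a receptor of indirect pathway medium spiny neurons, which also carry the dopamine D2 receptor, and on the Gi-coupled A1 receptor found on many neurons and nerve endings. Gpr6 is an orphan receptor with high constitutive Gs activity, also enriched in indirect pathway neurons.

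Of the 8 receptor genes, 6 fell in R6/1 striatum at an adjusted p under 0.05 (edgeR's quasi-likelihood test, Benjamini-Hochberg adjustment over 17202 genes): Adora2a, Gpr6, Gpr83, Gpr139, Adora1 and Gpr155. Adora2b and Gpr149 did not pass. No receptor had a positive fold change by edgeR, DESeq2 or limma-voom. Over all tested genes, 12.8% fell and 9.72% rose. In 7 of the 8 receptors both R6/1 libraries lay below every WT library, which held for 26.9% of all tested genes. The median log2 fold change of the 8 genes was -1.45, and that of all tested genes was -0.0079. The summed level of the 8 receptors was 328 and 344 CPM in the R6/1 libraries, against 880.4, 744 and 881 CPM in the WT libraries, where CPM is the count per 1000000 counts of a library after TMM scaling. In bulk tissue, fewer cells of a type and less RNA per cell cannot be told apart.

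Library totals were 34379064 and 29871306 counts in R6/1 and 19630036 to 23046266 counts in WT, so every R6/1 library was the deeper. The tissue label was met by the markers of medium spiny neurons, the main striatal neuron: all 18 were detected in every library, and 17 fell in R6/1. Their summed level was 3918 and 3913 CPM in R6/1 and 12225 to 14231 CPM in WT. Markers of choroid plexus, the ventricular tissue that secretes cerebrospinal fluid, summed to 144 and 55.7 CPM in R6/1 and to 3714, 3624 and 121 CPM in WT, so WT replicates 1 and 2 stood apart. With both of these libraries left out, the log2 fold change of the same 6 receptors stayed negative. That fit holds 1 WT library, so it measures no spread within WT.

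Promoter sequence was taken from RefSeq (GRCm38.p6), whereas the counts are on build mm9, and 5 of the 8 genes matched an entry. Windows run from 250 bases before to 50 bases after the annotated start, 5′ to 3′ on the gene's strand. Those of Gpr6, Gpr83 and Adora1 are printed, for a receptor with a steep fall and a full cAMP response element letter match, for a steep fall without one, and for a shallow fall. Capitals mark every match, on either strand, to the cAMP response element TGACGTCA, to its shorter form TGACG, to the TATA box letters TATAAA, to the CCAAT box and to the GC box GGGCGG.
Gpr6: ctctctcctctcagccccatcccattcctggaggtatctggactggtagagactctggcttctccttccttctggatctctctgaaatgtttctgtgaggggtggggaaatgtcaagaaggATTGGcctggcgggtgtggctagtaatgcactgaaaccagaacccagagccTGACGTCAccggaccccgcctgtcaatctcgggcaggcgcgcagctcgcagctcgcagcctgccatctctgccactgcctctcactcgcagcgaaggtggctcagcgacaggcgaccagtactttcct
Gpr83: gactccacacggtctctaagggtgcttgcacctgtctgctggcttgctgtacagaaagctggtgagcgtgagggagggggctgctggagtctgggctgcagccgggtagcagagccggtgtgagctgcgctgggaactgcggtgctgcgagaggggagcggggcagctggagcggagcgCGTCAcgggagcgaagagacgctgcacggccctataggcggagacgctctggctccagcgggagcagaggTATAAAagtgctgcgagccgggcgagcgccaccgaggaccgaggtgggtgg
Adora1: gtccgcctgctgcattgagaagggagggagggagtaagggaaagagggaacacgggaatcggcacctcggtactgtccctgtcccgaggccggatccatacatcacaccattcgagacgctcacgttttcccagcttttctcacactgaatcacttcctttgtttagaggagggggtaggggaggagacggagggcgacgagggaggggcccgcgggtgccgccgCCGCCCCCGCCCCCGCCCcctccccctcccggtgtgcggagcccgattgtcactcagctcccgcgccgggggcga
The Gpr6 window lies at chr10:41072241-41072540 (minus strand), the Gpr83 window at chr9:14859960-14860259 (plus strand) and the Adora1 window at chr1:134235408-134235707 (minus strand, the first of the gene's starts listed). The Gpr6 window held TGACGTCA once, with both of its TGACG matches inside that palindrome, and CCAAT once. TGACGTCA stood in 1.79% of 32851 promoter windows and CCAAT in 37.4%. The Gpr83 window held TGACG once and TATAAA once, which stood in 20.8% and 13.6% of windows. The Adora1 window held GGGCGG 3 times, and 35.7% of windows held it at least once. A second listed start of Adora1, at chr1:134234807-134235106, held 0 matches to any of these motifs. Among the windows not printed, that of Gpr155, also a shallow fall, held 1 TGACG match and 7 GGGCGG matches. That of Adora2b, which did not pass, held 1 CCAAT match and 6 GGGCGG matches. The windows held 13, 24 and 26 CpG dinucleotides in Gpr6, Gpr83 and Adora1, against a median of 7 over all windows. These are letter matches only, and no binding was measured.

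Levels were compared between genes on the authors' deposited signal per kb of gene length, which is the count divided by a size factor and by length. In R6/1 the mean level was highest for Gpr155 (1469), then Adora1 (372), Adora2a (350.2), Gpr83 (299.7), Gpr6 (231), Gpr149 (149), Adora2b (38.7) and Gpr139 (5.46). In WT the order was Gpr155 (2416), Adora2a (1871), Gpr83 (1298), Gpr6 (1118), Adora1 (624), Gpr149 (189), Gpr139 (83.7) and Adora2b (53.8). Adora1 and Adora2a overlapped between R6/1 libraries, and Gpr83 and Gpr6 between WT libraries. All other neighbours in each order were separate. Adora1 thus stood at place 2 of 8 in R6/1 and 5 in WT, and Gpr139 moved below Adora2b.

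**Figure D1:**
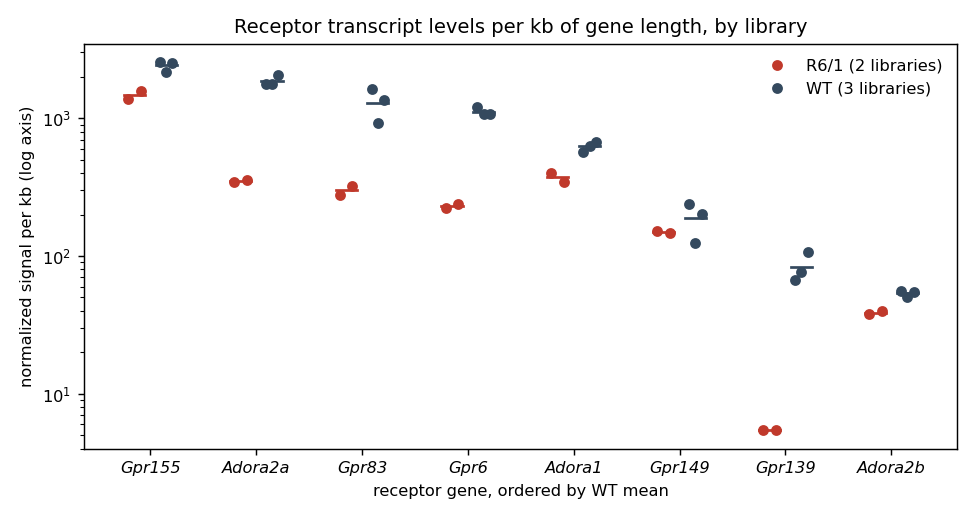
Authors' deposited normalized signal per kb of gene length (log axis) of each receptor in the R6/1 libraries (red, left) and WT libraries (blue, right), with lines at the group means. Gpr139 has the widest gap (5.46 in R6/1 and 83.7 in WT on average), and only Gpr149 overlaps between groups.

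Adora2a (ENSMUSG00000020178, chromosome 10), the A2a receptor, stood at 34.5 and 35.2 CPM in R6/1 libraries, against 180.0, 177 and 208 CPM in WT libraries. Both R6/1 values lay far under the lowest WT value and within 1 CPM of each other. The means were 34.9 ± 0.508 CPM in R6/1 (SD, n = 2) and 188 ± 16.9 CPM in WT (SD, n = 3). The log2 fold change was -2.43 (SE 0.10, edgeR adjusted p 8.47e-05), a 5.40-fold lower level in R6/1. By p-value it ranked 5 of the 17202 genes tested, and by size of fall 177. The counts behind these values were 1244 and 1105 reads in R6/1 and 3367 to 4607 reads in WT.

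Adora1 (ENSMUSG00000042429, chromosome 1), the inhibitory A1 receptor, stood at 78.0 and 67.2 CPM in R6/1, against 113, 124 and 132 CPM in WT. The groups did not overlap, and the fall was shallower than that of Adora2a, at 1.70-fold (log2 fold change -0.76, SE 0.10, edgeR adjusted p 0.00309). The ratio of Adora2a to Adora1 counts, which needs no library scaling, was 0.442 and 0.524 in R6/1 libraries and 1.59, 1.43 and 1.57 in WT libraries. Adora1 counts exceeded Adora2a counts in both R6/1 libraries and were exceeded by them in all 3 WT libraries. That order is not corrected for gene length, at 4.97 kb for Adora1 and 2.53 kb for Adora2a. Per kb, Adora1 was above Adora2a in R6/1 replicate 1 (399 against 346) and below it in R6/1 replicate 2 (345 against 355). The log2 ratio of counts differed by -1.67 between R6/1 and WT (exact two-sided permutation p = 0.1, the smallest that 10 regroupings of 5 libraries allow). Adora1 overlaps Mybph on the opposite strand, and whether the authors' counting used strand is not stated in the sources used here. Mybph held 11 and 12 reads in R6/1 and 8 to 13 reads in WT, against 2108 to 2936 reads for Adora1.

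Adora2b (ENSMUSG00000018500, chromosome 11), a Gs-coupled receptor of low affinity for adenosine, was scarce, at 2.75 and 2.87 CPM in R6/1 (99 and 90 reads) and 4.12, 3.69 and 4.02 CPM in WT (92, 70 and 89 reads). The groups did not overlap. The log2 fold change of -0.49 (SE 0.18) did not pass edgeR's test (adjusted p 0.0934). In the authors' deposited table its log2 ratio was -0.46 with an adjusted p of 0.0439. Adora3, the remaining adenosine receptor and no member of the group, was at 0.638 and 0.924 CPM in R6/1 and 0.632 to 0.902 CPM in WT (log2 fold change 0.02, edgeR adjusted p 0.977). Its symbol has 2 rows in the table, and the row whose identifier matches the annotation was used.

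Gpr6 (ENSMUSG00000046922, chromosome 10) stood at 15.6 and 16.5 CPM in R6/1, against 85.7, 75.4 and 75.4 CPM in WT. Each group was tight and they lay far apart, with means of 16.1 ± 0.676 CPM in R6/1 (SD, n = 2) and 78.8 ± 5.94 CPM in WT (SD, n = 3). The level was 4.91-fold lower in R6/1 (log2 fold change -2.30, SE 0.10, edgeR adjusted p 8.47e-05), and Gpr6 ranked 9 by p-value. Gpr6 counts were 0.452 and 0.470 of Adora2a counts in R6/1 and 0.476, 0.425 and 0.363 in WT, so this ratio overlapped between the groups. Its closest paralogs, the constitutively active receptors Gpr3 and Gpr12, also fell: Gpr12 was at 17.9 and 18.2 CPM in R6/1 and 31.3 to 38.3 CPM in WT (log2 fold change -0.96, edgeR adjusted p 0.00171). Gpr3 was at 3.05 and 2.52 CPM in R6/1 and 4.42 to 5.38 CPM in WT (log2 fold change -0.81, edgeR adjusted p 0.0266). The Gpr3 call was lost without any of R6/1 replicates 1 and 2 and WT replicates 1 and 3, and with the choroid plexus covariate (edgeR adjusted p 0.0649 to 0.178).

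Gpr83 (ENSMUSG00000031932, chromosome 9), first described as a glucocorticoid-induced receptor, stood at 32.0 and 37.1 CPM in R6/1, against 189, 108 and 158 CPM in WT. The R6/1 values were below every WT value, and the WT libraries spread widely (34.6 ± 3.63 CPM in R6/1, SD, n = 2, and 152 ± 41.3 CPM in WT, SD, n = 3). The level was 4.39-fold lower in R6/1 (log2 fold change -2.13, SE 0.23, edgeR adjusted p 0.00139).

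Gpr149 (ENSMUSG00000043441, chromosome 3), an orphan receptor, stood at 14.7 and 14.2 CPM in R6/1, against 23.4, 12.2 and 19.9 CPM in WT. WT replicate 2 lay below both R6/1 libraries and the other WT libraries above them. The log2 fold change of -0.36 (SE 0.25) did not pass (edgeR adjusted p 0.332). Without WT replicate 2 it was -0.58 and passed (adjusted p 0.0149). The ratio of Gpr149 to Gpr83 counts was 0.459 and 0.384 in R6/1 and 0.123, 0.113 and 0.126 in WT.

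WT replicate 2, the lowest WT library for Gpr83 and Gpr149, was the highest for markers of cortical projection neurons. The 8 cortical markers, all detected in every library, summed to 154 and 98.3 CPM in R6/1 and to 100.1, 311 and 224 CPM in WT. In WT the order of the libraries by cortical markers was the reverse of their order by Gpr83 and by Gpr149. R6/1 replicate 2 and WT replicate 1 had nearly the same cortical sum, and between them Gpr83 was at 37.1 against 189 CPM and Gpr149 at 14.2 against 23.4 CPM. That sets 1 library against 1, and WT replicate 1 was the WT library highest in both receptors. The same 2 libraries also differed in summed choroid plexus and ependymal markers, at 55.7 against 3714 CPM. The part of cortical RNA in these results was not tested.

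**Figure D2:**
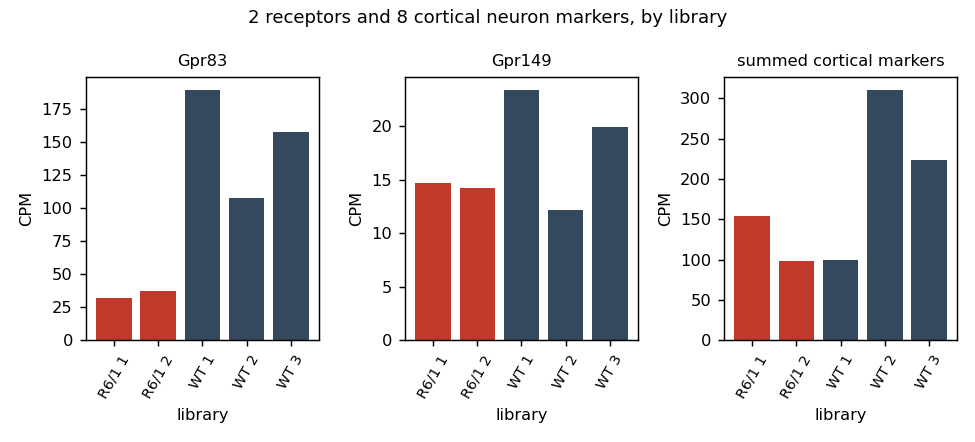
Gpr83, Gpr149 and the summed level of 8 cortical projection neuron markers in CPM, 1 bar per library (R6/1 red, WT blue). In WT, replicate 2 has the lowest Gpr83 (108 CPM) and Gpr149 (12.2 CPM) and the highest cortical sum (311 CPM).

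Gpr139 (ENSMUSG00000066197, chromosome 7), a receptor that responds to aromatic amino acids and is known from the habenula and striatum, had the steepest fall of the 8. It held 8 and 7 reads in R6/1 libraries, against 62, 60 and 98 reads in the shallower WT libraries. As levels these were 0.222 and 0.223 CPM in R6/1 and 2.78, 3.16 and 4.42 CPM in WT. The fold was 15.2 lower in R6/1 (log2 fold change -3.93, SE 0.35, edgeR adjusted p 0.000673). At this depth the exact 95% Clopper-Pearson interval, as CPM of the raw total, was 0.100 to 0.459 in R6/1 replicate 1 and 2.06 to 3.45 in WT replicate 1, for counting error alone. In the authors' deposited table the log2 ratio was -3.09. Markers of the habenula and neighbouring regions summed to 67.6 and 56.1 CPM in R6/1 and 59.9, 80.3 and 54.7 CPM in WT, which overlapped, and all but 1 of the 11 tested did not pass. The exception was Pou4f1, a habenular transcription factor (picked out with its values known), at 3.44 and 3.57 CPM in R6/1 and 0.0527 to 0.135 CPM in WT (log2 fold change 5.15, edgeR adjusted p 0.000214). Zic1, another of these genes, was at 13.3 and 10.3 CPM in R6/1 and 13.0 to 21.3 CPM in WT (edgeR adjusted p 0.0987). The part of neighbouring tissue in the Gpr139 result was not tested.

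Gpr155 (ENSMUSG00000041762, chromosome 2), a lysosomal membrane protein that senses cholesterol and carries a transporter-like part beside its receptor-like part, was the most abundant of the 8 per length. It stood at 150.4 and 171 CPM in R6/1, against 282, 241 and 279 CPM in WT. The groups did not overlap, and the level was 1.66-fold lower in R6/1 (log2 fold change -0.73, SE 0.10, edgeR adjusted p 0.00317). Its fall was close in size to that of Adora1, and the count ratio of Gpr155 to Adora1 overlapped between groups (1.93 and 2.54 in R6/1, and 2.48, 1.94 and 2.11 in WT). The annotated antisense genes that overlap Gpr155 held at most 2 reads a library.

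**Figure D3:**
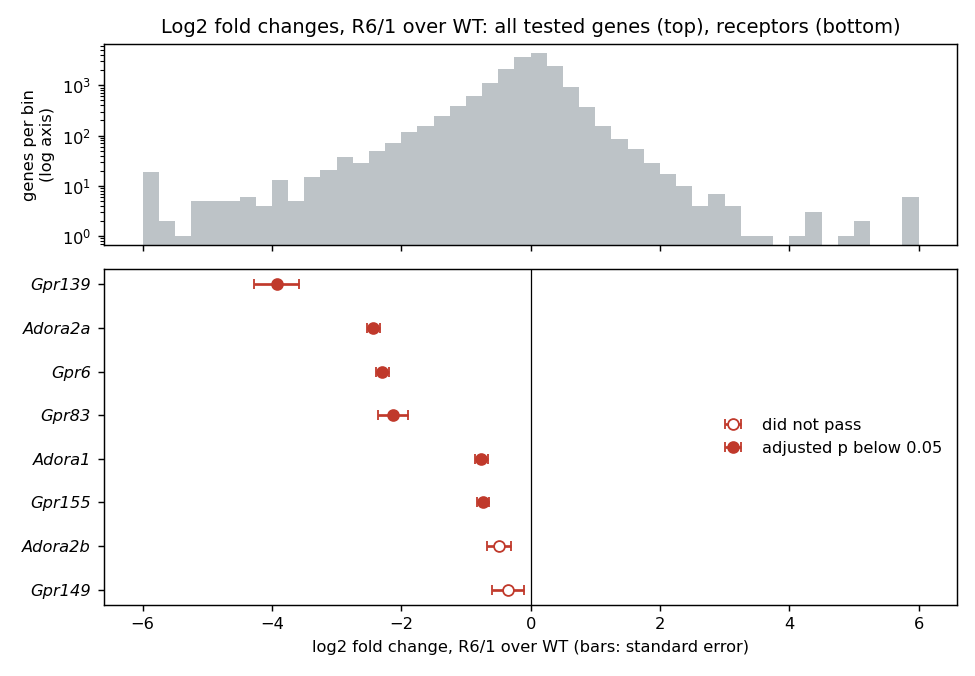
Distribution of log2 fold changes (R6/1 over WT) over all 17202 tested genes (top, log axis, with values beyond the range gathered in the outer bins) and the 8 receptors with standard errors (bottom). Gpr139, Adora2a, Gpr6 and Gpr83 lie at or below -2.13, Adora1 and Gpr155 near -0.75, and the open points Adora2b and Gpr149 did not pass.

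The list of genes of adenosine supply and clearance, which also holds the receptor Adora3, had 17 tested members, of which 2 fell and the other 15 did not pass. Over all tested genes 12.8% fell. The list's median log2 fold change was -0.02. Nt5e, the ecto-5′-nucleotidase CD73 that makes adenosine from AMP, was at 22.4 and 23.8 CPM in R6/1 and 97.5, 46.6 and 96.1 CPM in WT (log2 fold change -1.79, SE 0.31, edgeR adjusted p 0.00793). Entpd1, the ectonucleotidase CD39 of the step before, was at 17.2 and 18.6 CPM in R6/1 and 32.5, 24.9 and 31.0 CPM in WT (log2 fold change -0.72, edgeR adjusted p 0.0099). For both, the groups did not overlap and WT replicate 2 was the lowest WT library. Both calls were lost without R6/1 replicate 1 (edgeR adjusted p 0.0734 for Nt5e and 0.0866 for Entpd1) or replicate 2 (0.0654 and 0.0614), and that of Entpd1 with the choroid plexus covariate (0.0604). The intracellular enzyme Adk was at 53.2 and 57.4 CPM in R6/1 and 51.5 to 73.9 CPM in WT, which overlapped. The transporter Slc29a1 was at 23.0 and 27.4 CPM in R6/1 and 26.1 to 29.5 CPM in WT, with neither past the test.

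Downstream of the receptors, 14 of 32 tested G protein and cAMP genes fell and 4 rose, beside 12.8% and 9.72% of all tested genes. The list's median log2 fold change was -0.01. The steepest falls were in the cyclic nucleotide phosphodiesterases Pde10a and Pde1b and the phosphatase inhibitor DARPP-32, Ppp1r1b. Pde10a was at 491 and 490.1 CPM in R6/1 and 2360 to 2767 CPM in WT, 5.31-fold lower (log2 fold change -2.41, edgeR adjusted p 8.47e-05). Pde1b (log2 fold change -1.90) and Ppp1r1b (-1.86) followed. Adcy5, the main striatal adenylyl cyclase (picked out with its values known), was at 367 and 365 CPM in R6/1 and 1179 to 1392 CPM in WT (log2 fold change -1.83). Gnal, which encodes Golf, fell by less, to 567 and 591 CPM in R6/1, against 726 to 782 CPM in WT (log2 fold change -0.39, edgeR adjusted p 0.00784). The 4 that rose, named after their values were seen, were Prkar2a (log2 fold change 0.99), Gnai2 (0.58), Gnb1 (0.47) and Prkar1a (0.32), a pair of protein kinase A regulatory subunits and G protein subunits of the alpha and beta kind. The number of rises ranged from 0 without R6/1 replicate 1 to 11 without WT replicate 2, and that of falls from 9 without R6/1 replicate 2 to 14. Pde10a, Pde1b, Ppp1r1b, Adcy5 and Gng7 are also on the list of medium spiny neuron markers.

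Markers of the neurons that carry these receptors were set beside them. Of 5 indirect pathway markers 3 fell, and of 8 direct pathway markers 4 fell and 1, the transcription factor Ebf1 (log2 fold change 0.58), rose. The median log2 fold change was -0.56 for the indirect list and -0.51 for the direct list. Over all tested genes 12.8% fell and 9.72% rose. Without either R6/1 replicate, 2 markers of each pathway fell. Penk, the enkephalin precursor of indirect pathway neurons, had a log2 fold change of -2.53, and Drd2, the dopamine D2 receptor, had -1.63. Drd1a, the dopamine D1 receptor of direct pathway neurons, had -1.84 and Chrm4, a muscarinic receptor of the same neurons, had -1.47. The other falls were shallower, at -0.46 for Gucy1a3 of the indirect list and -0.68 for Pdyn and -0.66 for Tac1 of the direct list. The ratio of Adora2a to Penk counts overlapped between groups (0.258 and 0.290 in R6/1, and 0.233, 0.271 and 0.262 in WT). The ratio of Adora2a to Drd2 counts did not, at 0.914 and 0.892 in R6/1 and 1.51, 1.45 and 1.79 in WT.

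Among the other genes with a Gpr symbol, 61 of 84 were tested. Of these 11 fell and 7 rose, beside 12.8% and 9.72% of all tested genes, and the median log2 fold change of the 61 was 0.14. Without either R6/1 replicate 5 fell and 1 rose. Falls at moderate level included the receptors Gpr158, at 276 and 278 CPM in R6/1 and 549 to 651 CPM in WT (log2 fold change -1.15), and Gpr26, at 123 and 111 CPM in R6/1 and 224 to 242 CPM in WT (-1.01). Rises at a mean log2 CPM of at least 1 were largest in Gpr165 (log2 fold change 1.04), Gpr161 (0.90) and Gpr45 (0.89). Each of these calls was lost without either R6/1 replicate. Below that level, Gpr179 (log2 fold change 2.10) and Gpr64 (1.30) rose by more, named after their values were seen. Gpr45 has 2 rows under its symbol, and the other row did not pass (log2 fold change 0.41, edgeR adjusted p 0.096). Rabgap1l, the host gene whose intron holds Gpr52, was at 230.1 and 229 CPM in R6/1 and 264 to 276 CPM in WT (log2 fold change -0.23, edgeR adjusted p 0.0365), a call lost in 8 of the 12 alternatives (edgeR adjusted p 0.066 to 0.21).

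**Figure D4:**
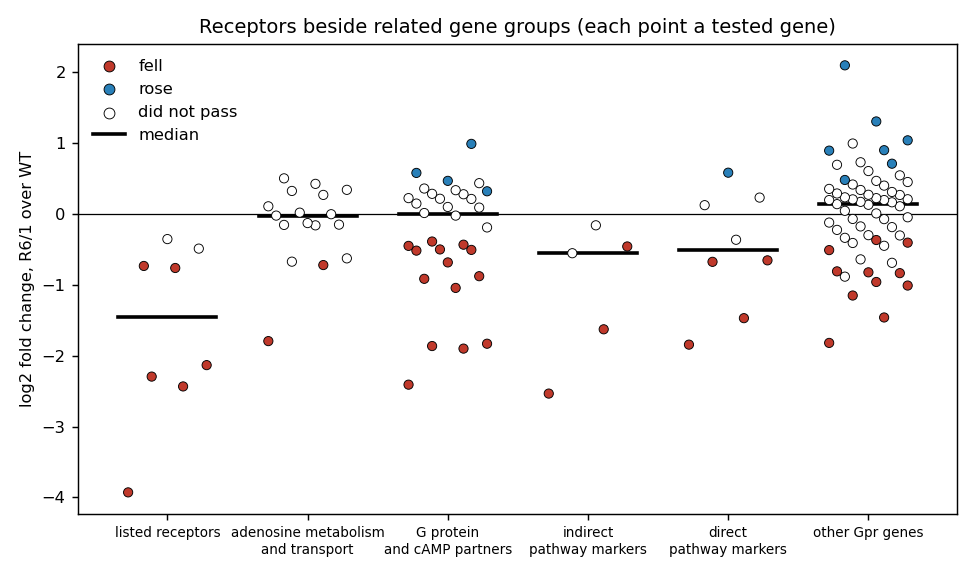
Log2 fold change, R6/1 over WT, of each tested gene in the receptor group and in 5 related groups, with filled points for genes that fell (red) or rose (blue) and lines at the medians. The receptors' median is -1.45, that of adenosine metabolism and transport genes -0.02 and that of the other Gpr genes 0.14.

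The genes whose levels ran most like each receptor over the 5 libraries were found by the root mean square difference of centred log2 CPM among 12165 genes, a description that mostly follows the difference between groups. They were Rgs11 (0.065) and Pde10a (0.085) for Adora2a, and Ier5l (0.063) and Rgs14 (0.076) for Gpr6. Rgs11 and Rgs14 encode regulators of G protein signalling. For Adora1 they were Hebp1 (0.038) and Wasf1 (0.039), and for Gpr155 Snn (0.013) and Ppp1r3c (0.031). The nearest genes lay farther off for Gpr83, with Arg2 (0.135) and Slc24a4 (0.142), and for Gpr139, with Abi3bp (0.201) and Slc26a5 (0.202).

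Markers of other cells the dissection could hold were counted in the same fit. Of 9 interneuron markers tested 4 fell and 5 did not pass, where 12.8% of all tested genes fell. The choline transporter Slc5a7 (log2 fold change -1.80) and Chat (-1.55) of cholinergic interneurons were among the falls. Among lists of 8 markers each, 3 astrocyte genes fell and Gfap rose (log2 fold change 0.71), the pericyte gene Rgs5 fell (-0.32), Mobp of oligodendrocytes fell (-0.67) and Sox10 rose (1.53), and Rasgrf2 of the cortical list fell (-0.68). None of the 8 microglial markers passed in edgeR, DESeq2 or limma-voom, and edgeR gave 0 of them an unadjusted p under 0.05. Csf1r, the most abundant of them, was at 70.9 and 74.5 CPM in R6/1 and 62.5 to 78.2 CPM in WT. Of the glial, pericyte and cortical markers named above, Sox10 kept its call under all 12 alternatives. Mobp, Rgs5 and Rasgrf2 lost theirs without either R6/1 replicate (edgeR adjusted p 0.136 to 0.203), without WT replicate 3 (0.0788 to 0.113) and with the choroid plexus covariate. Mobp and Rgs5 also lost theirs without WT replicate 1, and without normalization (edgeR adjusted p 0.0718 and 0.0887). Mobp lost its call in limma-voom as well (adjusted p 0.0549). Gfap lost its call without R6/1 replicate 1 (edgeR adjusted p 0.161) and with the covariate, and without either R6/1 replicate 1 astrocyte gene fell. Of 12 choroid plexus and ependymal markers 6 fell, of which Ttr, Folr1, Kcnj13 and Slc4a5 overlapped between the groups. That count was 2 without R6/1 replicate 1, 0 without R6/1 replicate 2, 2 without WT replicate 1 or 2, 10 without WT replicate 3 and 2 in limma-voom.

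**Figure D5:**
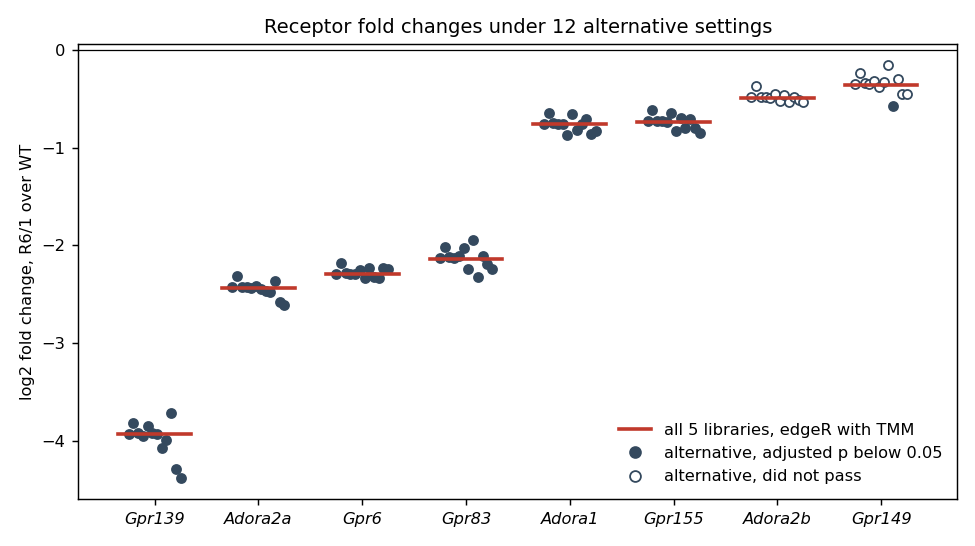
Log2 fold change of each receptor, R6/1 over WT, under the 12 alternative settings (points, filled where the adjusted p was below 0.05) beside the value with all 5 libraries (red line). Every point is below 0; the 6 receptors that fell passed under each of the 12, Adora2b under none and Gpr149 under 1, the one without WT replicate 2.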

How the data were processed

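Total RNA of striatum was depleted of ribosomal RNA and made into strand-specific libraries with random primers, per the labels' protocols, in 2 R6/1 and 3 WT libraries. Raw counts per gene, a normalized signal and that signal per kb were deposited by the authors, with log2 ratios and p-values of their own comparison, per the file headers. Build mm9 and the tools TopHat 1.4.1, HTSeq 0.5.4p3, CASAVA 1.8.2 and DESeq2 1.0.19 are named, without roles, in the submitters' processing notes. The sources used here state neither the annotation release nor the strand setting.

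Counts were tested with edgeR 4.0.16 in R 4.3.3 (quasi-likelihood test, TMM scaling, filterByExpr with a minimum count of 10 and a minimum total of 15), R6/1 over WT with no covariate. This kept 17202 of 26369 genes, and the threshold was an adjusted p under 0.05 (Benjamini-Hochberg). Fold changes are edgeR's fitted values, and a receptor was said not to overlap where both R6/1 CPM values lay on 1 side of all WT values. The fit was tested on simulated data. Alternatives were DESeq2 1.42.0, limma-voom (limma 3.58.1), other scalings, no filter, libraries left out and a choroid plexus covariate. The covariate was the standardized mean log2 CPM, per library, of the choroid plexus and ependymal markers. Library totals ran from 19630036 to 34379064 counts, and intervals on counts cover counting error only.

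The receptors and the 14 related gene lists were chosen with earlier results of these data known, so their counts are descriptions. Of 161 list entries, 159 were found. Named genes were all receptors and the 2 genes most like each called receptor. From each related list, up to 3 called genes with the largest change were named, or the most abundant where none was called. Among other Gpr genes, the 3 largest falls and rises were named. These picks from lists and Gpr genes were made at a mean log2 CPM of at least 1. Gene overlap, chromosomes and identifiers were checked against GENCODE M21 (GRCm38). Some genes that this rule takes are given only in counts or are not reported here.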

Additional observations from a re-analysis of the deposited data

How the results depend on the processing

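The 6 receptors that fell kept that call under all 12 alternatives, with log2 fold changes of -2.60 to -2.32 for Adora2a, -2.34 to -2.18 for Gpr6, -2.33 to -1.94 for Gpr83, -4.38 to -3.71 for Gpr139, -0.87 to -0.65 for Adora1 (adjusted p up to 0.0366) and -0.85 to -0.62 for Gpr155 (adjusted p up to 0.0392). Adora2b did not pass under any (adjusted p 0.0784 to 0.309). Gpr149 ran from -0.58 to -0.15 with 1 library left out and passed without WT replicate 2. Over all genes, leaving out 1 library gave 776 to 2576 falls and 280 to 2277 rises, against 2210 and 1672, with the fewest falls without R6/1 replicate 2 and the fewest rises without R6/1 replicate 1. The choroid plexus covariate gave 856 falls and 286 rises. Without normalization there were 3237 rises, the falls' share of calls was 34.4% against 56.9%, and the median log2 fold change of all genes was 0.11 against -0.01. Among related genes that had not passed or lay in the choroid list, the sign turned for Csf1r, Zic1, Ttr, Kcnj13 and Slc4a5. Csf1r ran from -0.069 to 0.081 with 1 library left out, and was below 0 without R6/1 replicate 2 or WT replicate 2. It was -0.038 without WT replicates 1 and 2 and -0.063 with the covariate. Zic1 (0.0045), Ttr (0.40), Kcnj13 (0.20) and Slc4a5 (0.22) turned with the covariate. Ttr, Kcnj13 and Slc4a5 are part of the list whose mean made the covariate, so the loss of their fall was fixed in advance. For Csf1r and Zic1 the cause was not tested. Of 468 values of 39 related genes, 375 kept call and direction, 83 lost the call, 2 gained it and 8 turned. No paired analysis was possible because the labels give the R6/1 and WT libraries no shared replicate numbers. The ratio of Gpr6 to Gpr52 was not run. With 1 library left out of R6/1, the lone library is assumed to vary like the WT group.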
